A study of Homo sapiens with 16 samples.

Results

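Kruppel-like factors (KLFs) are zinc-finger transcription factors that bind GC-rich and CACCC elements in gene promoters. The genes described here are KLF2, KLF4, KLF5, KLF6, KLF7, KLF9, KLF10, KLF11 and KLF13, found by their symbols in a deposited table of 61806 genes. All 9 were found and all 9 passed the filter on low counts that left 16029 genes for testing. They were followed in LX-2, a line of immortalised stellate cells of human liver, a cell type that makes fibrous matrix once activated. The data are poly(A) RNA-seq counts of 4 groups of 4 libraries, described as biological replicates. The first group was wild-type LX-2 given PBS vehicle (WT), and the next was wild-type LX-2 given the TNF-family cytokine TWEAK at 100 ng/mL for 2 h. The remaining groups were CRISPR/Cas9 knockouts kept in vehicle, of Fn14alpha, which the series title treats as an isoform of the TWEAK receptor Fn14, and of total Fn14. All cells had been in culture for 24 h beforehand, in an endothelial growth medium (EBM-2) with its supplement kit and reduced serum. The sources used here do not say whether a knockout was kept as 1 clone or as a pool, so a knockout and the cell line that carries it cannot be told apart. The replicates are not described further, and p-values measure the spread between these libraries, which may be technical.

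The family divides by the partners its members recruit. KLF2, KLF4, KLF5, KLF6 and KLF7 mostly activate transcription through acetyltransferases. KLF9, KLF10, KLF11 and KLF13 carry a SIN3A-binding domain and mostly repress, and KLF3, KLF8 and KLF12 bind the corepressor CtBP. In liver fibrosis KLF6 is known as an early gene of stellate cell activation that acts on collagen and TGF-beta genes, and KLF10 and KLF11 were first described as genes induced early by TGF-beta. KLF2 and KLF4 are the classic targets of the kinase ERK5 and its MEF2 factors in endothelium, and KLF9 is a glucocorticoid-responsive gene that is also tied to the circadian clock.

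Total counts ran from 13335919 to 16888606 per library. A member had 61 to 2718 reads in a library, the fewest for KLF5 and the most for KLF6. The targeted gene TNFRSF12A, which encodes Fn14, stood at 128 ± 6.29 FPKM (SD, n = 4) in WT. It stood at 59.3 ± 6.43 in the Fn14alpha knockout and at 33.6 ± 2.77 in the Fn14 knockout, with counts summed over its isoforms. On the third principal component (5.44% of the variance) 2 libraries, replicate 4 of WT and replicate 1 of the Fn14 knockout, stood away from the other 14. In these 2 libraries ribosomal protein genes took 4.76% and 4.36% of the reads, against 3.89% to 3.91% in the other WT libraries and 3.06% to 3.47% in the other Fn14 knockout libraries. KLF5, KLF7, KLF11 and KLF13 had their lowest value of the group in both of these libraries and KLF2 its highest, and the part of this shift in the results was not tested. Without both libraries 20 of the 20 calls described below remained. Of 10 stellate cell markers, 7 passed the filter, and of the others LRAT and DES were at or near 0 (at most 0.26 FPKM). The summed level of the 10 was 626 to 672 FPKM in WT and 826 to 899 under TWEAK. It was 475 to 486 in the Fn14alpha knockout, and 830 to 918 where all Fn14 was targeted. The 3 most abundant markers, VIM, COL1A1 and TIMP1, made up most of that sum, and others went another way. With TWEAK 1 marker (VIM) was higher and 1 (COL3A1) lower of 7, with a list median of −0.09. In the Fn14alpha knockout 0 were higher and 6 lower, and in the Fn14 knockout 4 were higher and 2 lower, the latter COL3A1, at 8.33 ± 0.66 FPKM against 23.7 ± 1.27 in WT, and COL1A2, at 0.16 ± 0.0294 against 1.48 ± 0.0932. Endothelial PECAM1, CDH5, VWF and ERG were at or near 0 (at most 0.08 FPKM), while TIE1 and EGFL7 reached 22.6 and 22.4 FPKM, and the sum of 8 endothelial markers was 34.9 to 38.4 FPKM in WT, against 32.1 to 37.7 under TWEAK. That sum was 40.1 to 45 where Fn14alpha was targeted, above WT, and 16.9 to 20.1 where total Fn14 was targeted, below it. Of 6 hepatocyte markers TTR was 0 in all 16 libraries and only SERPINA1 passed the filter, with a list sum of 2.26 to 2.67 FPKM in WT and 0.26 to 0.73 in the Fn14 knockout. Of 6 leukocyte markers PTPRC was at most 0.02 FPKM and 2 (CD68 and CSF1R) were tested, with a list sum of 0.49 to 0.71 FPKM in WT and 1.01 to 1.21 in the Fn14 knockout, where both were higher. Of 5 cholangiocyte markers EPCAM and CFTR were at or near 0 (at most 0.28 FPKM), and the list sum, mostly SOX9, was 5.19 to 6.29 FPKM in WT and 11.3 to 12.8 in the Fn14 knockout. The part of these marker levels in the KLF results was not tested.

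Promoter windows of 250 bases before the start site were taken from RefSeq (GRCh38.p14) and 8 of the 9 members matched. KLF10 had no entry. They are shown for 3 members whose levels differed between groups in different ways and whose start site is that of the deposited gene. In these windows capitals mark GC boxes, spelled GGGCGG. They also mark the CACCC box, with 1 more C before it, the CCAAT box as spelled by its name, and the MEF2 site. Each was searched on both strands. KLF2, read at chr19:16324576-16324825 on the plus strand, holds 4 GC boxes and a MEF2 site at 120 to 111 bases before the start:
KLF2: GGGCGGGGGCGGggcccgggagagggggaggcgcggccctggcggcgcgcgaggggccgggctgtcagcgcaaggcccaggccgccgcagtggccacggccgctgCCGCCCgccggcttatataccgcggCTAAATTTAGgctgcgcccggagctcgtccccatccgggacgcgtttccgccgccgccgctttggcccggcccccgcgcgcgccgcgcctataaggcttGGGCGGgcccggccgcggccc
KLF13, read at chr15:31326585-31326834 on the plus strand, holds 3 GC boxes, 2 CCAAT boxes and a CACCC box that overlaps a GC box:
KLF13: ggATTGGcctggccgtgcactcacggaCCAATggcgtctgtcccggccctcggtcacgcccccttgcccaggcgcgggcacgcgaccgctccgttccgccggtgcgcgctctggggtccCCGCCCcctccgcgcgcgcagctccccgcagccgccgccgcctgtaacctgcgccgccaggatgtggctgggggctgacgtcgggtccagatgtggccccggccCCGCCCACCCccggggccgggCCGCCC
KLF9, read at chr9:70414658-70414907 on the minus strand, holds 2 CCAAT boxes and none of the other 3 motifs:
KLF9: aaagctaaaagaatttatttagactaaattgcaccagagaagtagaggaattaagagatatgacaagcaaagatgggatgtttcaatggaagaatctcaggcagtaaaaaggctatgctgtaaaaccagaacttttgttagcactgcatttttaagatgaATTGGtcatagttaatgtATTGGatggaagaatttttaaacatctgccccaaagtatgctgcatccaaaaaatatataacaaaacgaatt
The contrast between them is one of base composition. The KLF2 and KLF13 windows are 80.0% and 78.8% G or C, and the KLF9 window is 32.4%, against a median of 58.0% over 35116 windows of the same length. The MEF2 site, CTAAATTTAG in KLF2, was found in 1 of the 8 member windows and in 2.8% of all windows. GC boxes were found in 5 of the 8 (42.6% of all windows), the CACCC box in 1 (31.3%) and CCAAT boxes in 4 (32.0%). The NF-kB site was found in 0 of the 8 (9.96% of all windows) and the AP-1 site TGANTCA in 0 (6.57%). These matches are letters in a window and describe no binding.

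In WT cells the members formed 3 tiers of FPKM. This measure divides by the exonic length of the annotated gene, 2820 bases for KLF2 and 9262 for KLF7, so the tiers depend on that length. KLF2 (18.2 ± 0.834, SD, n = 4), KLF10 (17.9 ± 1.12) and KLF6 (16.1 ± 0.645) were the most abundant. KLF9 (6.55 ± 0.577), KLF7 (5.71 ± 0.777), KLF4 (5.65 ± 0.414) and KLF13 (5.57 ± 0.837) made the middle tier. KLF11 (3.19 ± 0.388) and KLF5 (2.38 ± 0.361) were the lowest. Within each tier the library ranges of neighbours overlapped, and between tiers they did not. Among the other family members only KLF16 (9.21 ± 0.464), KLF3 (4.84 ± 0.449) and KLF12 (1.62 ± 0.197) exceeded 1 FPKM in WT.

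**Figure D1:**
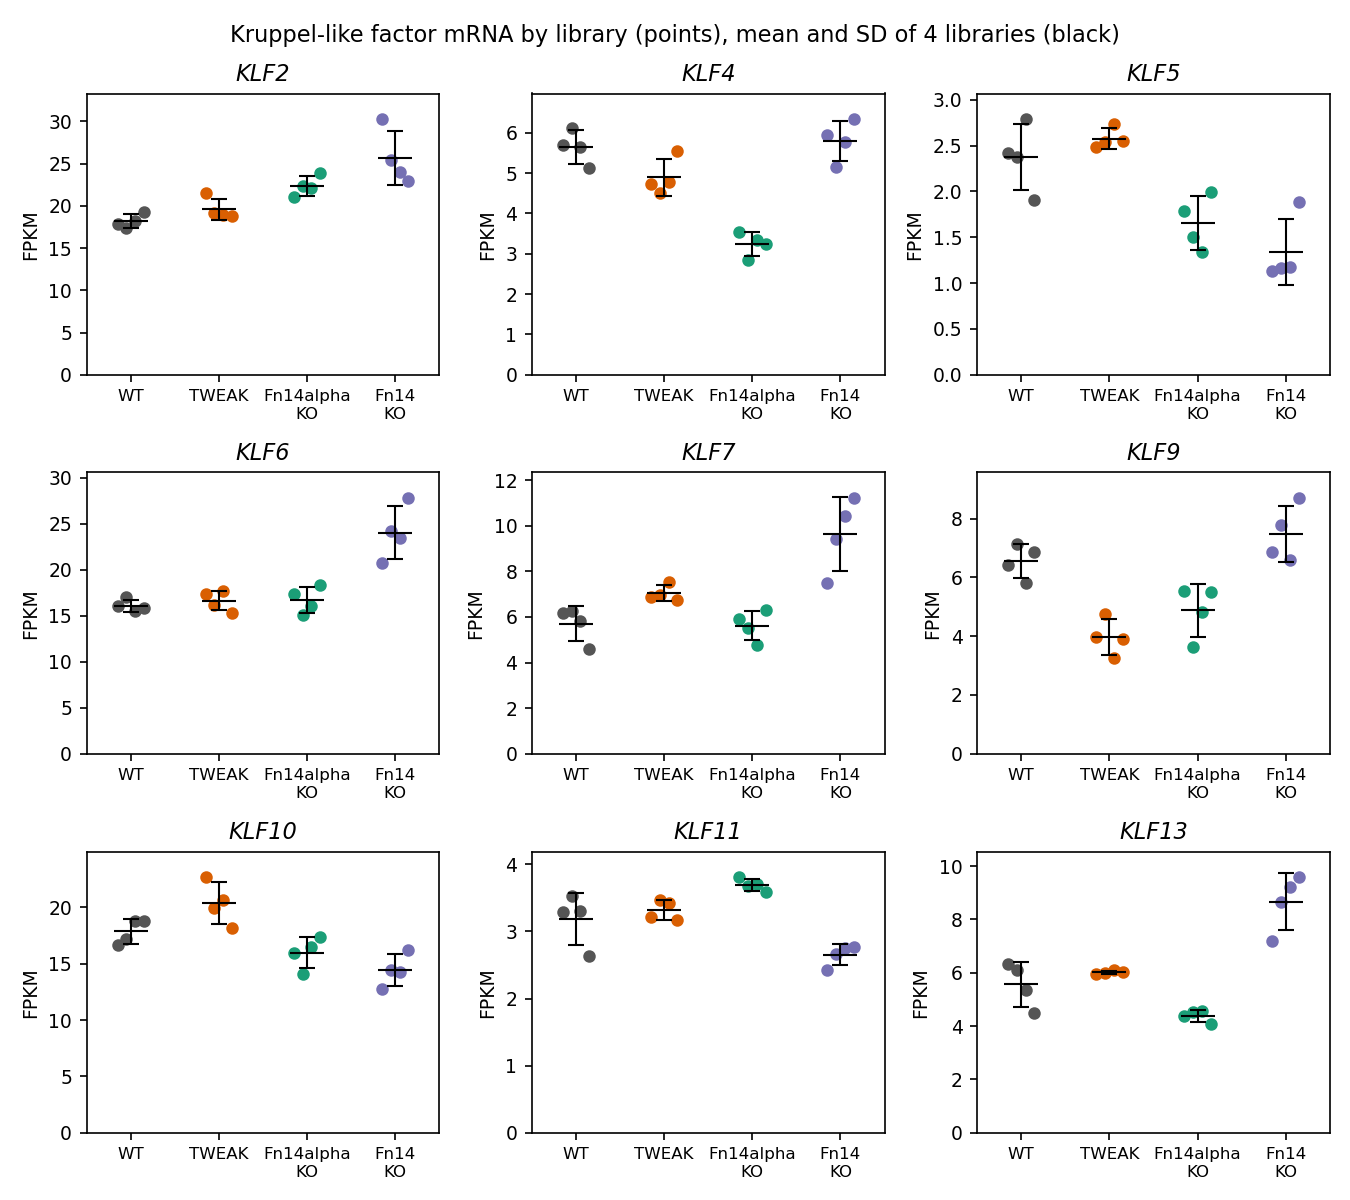
FPKM of the 9 KLF genes in each of the 16 libraries, one panel per gene, with points for libraries, horizontal bars for group means and error bars of 1 SD (n = 4). KLF9 is the member whose 4 TWEAK libraries (3.25 to 4.75) all lie below the 4 WT libraries (5.81 to 7.13), and KLF6, KLF7 and KLF13 reach their highest means in the Fn14 knockout.

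The order changed between groups. With TWEAK, KLF9 dropped from the fourth place among the 9 to the seventh, between KLF4 and KLF11, whose ranges it overlapped. In the Fn14alpha knockout KLF4 fell to the eighth place, below KLF11, and the ranges of these neighbours did not overlap. In the Fn14 knockout KLF6 (24.0 ± 2.90) stood beside KLF2 (25.7 ± 3.23) with overlapping ranges, and KLF10 (14.4 ± 1.43) lay below both without overlap. KLF5 had the lowest mean of the 9 in every group. Measured as the range of the 4 group means of log2 CPM, KLF13 varied most (1.12), then KLF4 (0.98), KLF9 (0.97), KLF7 (0.92) and KLF5 (0.91), while KLF10 (0.44) and KLF11 (0.33) varied least. The summed FPKM of all 18 KLF genes was 97.4 ± 2.37 in WT and 101 ± 3.14 under TWEAK. It was 94.6 ± 4.69 in the Fn14alpha knockout, and 117 ± 5.59 in the total knockout. All 4 Fn14 knockout libraries (112.6 to 125.3) lay above the other 12, whose highest value was 104.5.

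**Figure D2:**
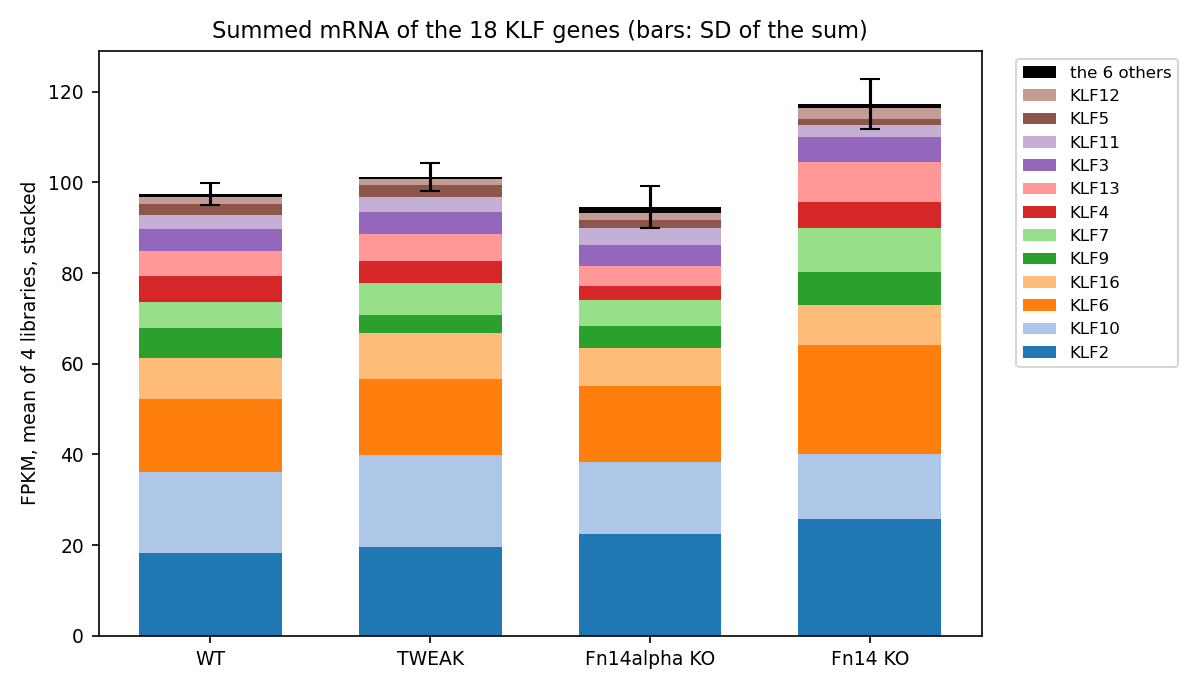
Mean FPKM of each KLF gene stacked by group (bars start at 0), with error bars of 1 SD for the sum over all 18 KLF genes (n = 4). The Fn14 knockout libraries (112.6 to 125.3 FPKM) lie above all others, and KLF2, KLF6 and KLF10 make up the larger part of each bar.

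The comparison of TWEAK with vehicle in wild-type cells asked which transcripts change within 2 h of the cytokine. KLF9 fell and KLF7 rose, and the other 7 members did not pass the test. These 2 of 9 members are 22.2%, beside 6.87% of all genes tested that were called in this comparison by edgeR at an adjusted p under 0.05 (4.82% higher and 2.05% lower). The median log2 fold change of the 9 was 0.17, beside −0.01 over all genes.

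KLF9, the glucocorticoid-responsive repressor, had 6.41, 7.13, 5.81 and 6.86 FPKM in the WT libraries and 3.97, 4.75, 3.25 and 3.91 with TWEAK. Every TWEAK library lay below every WT library. The fitted level was 63.0% of WT (log2 fold change −0.67 ± 0.12 SE, edgeR adjusted p = 0.000756). The call remained in all 18 alternatives run for it, with adjusted p from 1.94e-10 to 0.00555. KLF7, an activator best known from neurons and adipocytes, had 6.19, 6.25, 5.82 and 4.58 FPKM in WT and 6.89, 6.97, 7.54 and 6.74 with TWEAK. The groups did not overlap, but WT replicate 4, one of the libraries that lay apart, was the lowest by more than 1 FPKM. The fitted rise was 0.36 ± 0.11 (edgeR adjusted p = 0.0470), close to the threshold, and 12 of 18 alternatives lost it. Their adjusted p ran up to 0.154, reached without WT replicate 4, where the difference was 0.27. It was also lost without WT replicate 1 (adjusted p = 0.0538) or 3 (0.0784), or without TWEAK replicate 1 (0.0842), 2 (0.0816), 3 (0.149) or 4 (0.0705).

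KLF10, a repressor and TGF-beta early gene, had 16.7, 17.2, 18.8 and 18.8 FPKM in WT and 22.7, 19.9, 20.6 and 18.2 with TWEAK. Replicate 4 of the TWEAK group lay within the WT range and the other 3 above it. The difference of 0.25 ± 0.08 did not pass (edgeR adjusted p = 0.0741), and it passed without TWEAK replicate 4 (0.30, adjusted p = 0.0438) and without both libraries that lay apart (0.28, adjusted p = 0.0115). Values for the remaining 6 members lay between −0.15 (KLF4) and 0.18 (KLF5), all with overlapping groups and edgeR adjusted p from 0.245 to 0.519. For KLF6 the interval of 1.96 SE around the difference was −0.04 to 0.26, and for KLF2 it was 0.01 to 0.33 (edgeR adjusted p = 0.245). In the same libraries the TNF-response genes TRAF1 and BIRC3 rose 26.9-fold and 11.3-fold (edgeR adjusted p = 1.64e-18 and 1.48e-16).

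**Figure D3:**
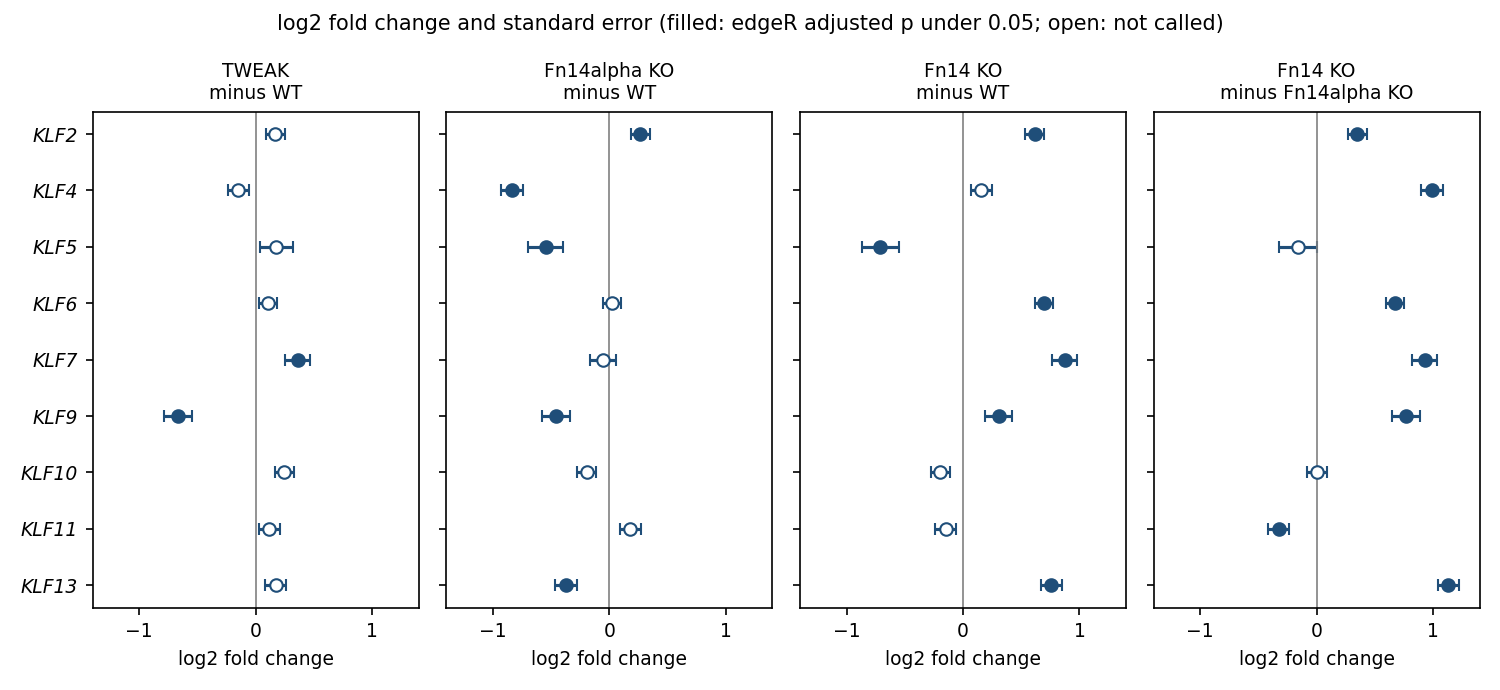
Log2 fold change of each of the 9 KLF genes in the 4 comparisons (points; error bars 1 SE; filled where edgeR's adjusted p is under 0.05). KLF9 lies below 0 with TWEAK (−0.67) and in the Fn14alpha knockout (−0.46) and above 0 in the Fn14 knockout (0.31), and KLF5 lies below 0 in both knockouts.

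The comparison of the Fn14alpha knockout with WT asked what differs where that isoform was targeted, without added TWEAK. KLF4, KLF5, KLF9 and KLF13 were lower and KLF2 was higher. These 5 of 9 members are 55.6%, beside 42.2% of all genes tested that were called (20% higher and 22.2% lower), so the share of members called was not far from that of genes at large. The median of the 9 was −0.20, beside 0.01 over all genes. Both knockouts and TWEAK are compared with the same 4 WT libraries, so a WT library that deviates moves all 3 comparisons.

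KLF4, known as a pluripotency factor and as an endothelial target of ERK5, had 5.70, 6.13, 5.65 and 5.12 FPKM in WT and 3.55, 2.84, 3.33 and 3.24 in the Fn14alpha knockout. All 4 knockout libraries lay below all WT libraries. The fitted level was 56.2% of WT (−0.83 ± 0.10, edgeR adjusted p = 1.63e-07). The 100 tested genes nearest to KLF4 on chromosome 9 had a median of −0.35 in this comparison, and with that median removed KLF4 differed by −0.48 (edgeR adjusted p = 0.000390). KLF5, an activator of proliferation genes in epithelium and smooth muscle, was 2.42, 2.38, 2.79 and 1.91 in WT and 1.79, 1.5, 1.34 and 1.99 in the knockout, where replicate 4 fell inside the WT range. It differed by −0.55 ± 0.15 (edgeR adjusted p = 0.00554).

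In the SIN3A-binding class KLF13, known for its control of the chemokine gene CCL5 in T cells, was 6.32, 6.12, 5.35 and 4.48 FPKM in WT and 4.38, 4.53, 4.56 and 4.08 in the Fn14alpha knockout. The knockout libraries lay below 3 of the 4 WT libraries, and WT replicate 4 fell within their range. KLF13 differed by −0.37 ± 0.09 (edgeR adjusted p = 0.00222). KLF9 was 5.55, 3.62, 4.82 and 5.51 in the knockout, below all WT libraries (−0.46 ± 0.12, edgeR adjusted p = 0.00385). Its neighbourhood on chromosome 9 had a median of −0.36, and with that removed the difference was −0.10 (edgeR adjusted p = 0.587). KLF2 rose from 17.8, 17.3, 18.2 and 19.3 to 21.1, 22.3, 22.1 and 23.9 FPKM without overlap (0.27 ± 0.08, edgeR adjusted p = 0.0102), and with its regional median of 0.09 removed the difference was 0.18 (edgeR adjusted p = 0.0906). KLF6 (0.02, interval −0.13 to 0.17) and KLF7 (−0.05, interval −0.27 to 0.16) were not called, with edgeR adjusted p of 0.863 and 0.725. KLF6 passed with its regional median of −0.24 removed (0.26, edgeR adjusted p = 0.0126). KLF10 (−0.20 ± 0.08, edgeR adjusted p = 0.0602) and KLF11 (0.18 ± 0.09, edgeR adjusted p = 0.11) were not called either, although the KLF11 libraries of the knockout (3.59 to 3.81) all lay above those of WT (2.63 to 3.53). KLF10 passed in 3 of 18 alternatives, among them those without WT replicate 1 (−0.23, adjusted p = 0.0429) and without Fn14alpha knockout replicate 4 (−0.24, adjusted p = 0.0423). KLF11 passed as higher in 2 of 18.

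The comparison of the Fn14 knockout with WT asked what differs where total Fn14 was targeted. KLF2, KLF6, KLF7, KLF9 and KLF13 were higher and KLF5 was lower. These 6 of 9 members are 66.7%, beside 52.9% of all genes tested that were called (26.6% higher and 26.3% lower). The median of the 9 was 0.31, beside −0.01 over all genes. With total counts in place of TMM scaling the median of all genes moved to −0.12 in this comparison and to −0.15 between the knockouts, so values there are relative to the scaling used.

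Of the activator class, KLF7 had 7.49, 9.40, 10.4 and 11.2 FPKM in the Fn14 knockout against 4.58 to 6.25 in WT. The groups did not overlap, and the lowest knockout library was replicate 1, which lay apart. The fitted level was 1.83-fold that of WT (0.87 ± 0.11, edgeR adjusted p = 4.66e-07). KLF6, the stellate cell activation gene, was 16.1, 16.99, 15.5 and 15.8 in WT and 20.7, 24.2, 23.4 and 27.8 in the knockout, again without overlap (1.62-fold, 0.70 ± 0.08, edgeR adjusted p = 5.51e-08). Its neighbourhood on chromosome 10 had a median of 0.29, and with that removed KLF6 differed by 0.41 (edgeR adjusted p = 0.000146). KLF2 was 30.3, 25.4, 24.0 and 23.0 in the knockout, all above WT (1.53-fold, 0.62 ± 0.08, edgeR adjusted p = 6.89e-07). Replicate 1 was the highest knockout library for KLF2 and the lowest for KLF5, KLF6, KLF7, KLF10, KLF11 and KLF13.

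KLF5 went the other way. Its 4 Fn14 knockout libraries had 1.13, 1.16, 1.18 and 1.88 FPKM, all below WT, with replicate 4 close to the lowest WT library (1.91). It differed by −0.71 ± 0.16 (edgeR adjusted p = 0.000472). The 100 tested genes nearest to it on chromosome 13 had a median of 0.55, and with that removed the difference was −1.26 (edgeR adjusted p = 4.43e-07). KLF4 was 5.94, 5.16, 5.77 and 6.34 in the knockout and overlapped WT (0.16 ± 0.09, interval −0.02 to 0.33, edgeR adjusted p = 0.154).

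Of the SIN3A-binding class, KLF13 was 7.18, 8.65, 9.23 and 9.59 FPKM in the Fn14 knockout, all above WT (1.69-fold, 0.76 ± 0.09, edgeR adjusted p = 1.79e-07). Its neighbourhood on chromosome 15 had a median of 0.27, and with that removed KLF13 differed by 0.49 (edgeR adjusted p = 9.87e-05). KLF9 was 6.85, 7.78, 6.58 and 8.70 in the knockout, which overlapped WT, and differed by 0.31 ± 0.12 (edgeR adjusted p = 0.0316). That call was lost in 7 of 18 alternatives, among them total counts (0.19, adjusted p = 0.190) and the fits without WT replicate 1 (adjusted p = 0.0698) or 3 (0.103) and without Fn14 knockout replicate 2 (0.0720) or 4 (0.121). KLF10 was 12.7, 14.5, 14.3 and 16.2 in the knockout against 16.7 to 18.8 in WT. The groups did not overlap, but the difference of −0.19 ± 0.08 missed the threshold (edgeR adjusted p = 0.0530), and 8 of 18 alternatives called it, among them the DESeq2 Wald test (−0.20, adjusted p = 0.0425) and the fits without WT replicate 1 (adjusted p = 0.0360) or 2 (0.0484) and without Fn14 knockout replicate 4 (0.0166). KLF11 was 2.43, 2.67, 2.75 and 2.77, overlapping WT (−0.15 ± 0.09, edgeR adjusted p = 0.183). It passed as lower in 4 of 18 alternatives, which were total counts (−0.27, adjusted p = 0.0190), both limma fits on FPKM (adjusted p = 0.0163 in each) and the fit without WT replicate 4 (−0.23, adjusted p = 0.0320). Its neighbourhood on chromosome 2 had a median of −0.37, and with that removed the sign turned and the gene was just called as higher (0.23, with an edgeR adjusted p that rounds to 0.05 from below).

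The knockouts were also compared with each other, which needs no WT library. KLF2, KLF4, KLF6, KLF7, KLF9 and KLF13 were higher and KLF11 lower in the Fn14 knockout than in the Fn14alpha knockout. These 7 of 9 members are 77.8%, beside 59.2% of all genes tested that were called (30.7% higher and 28.5% lower). The median of the 9 was 0.68, beside 0 over all genes. KLF13 showed the largest difference of the 9, with 7.18 to 9.59 FPKM against 4.08 to 4.56 (2.19-fold, 1.13 ± 0.09, edgeR adjusted p = 2.27e-10). KLF4 was 5.16 to 6.34 against 2.84 to 3.55 (1.98-fold, 0.99 ± 0.10, edgeR adjusted p = 4.06e-09), and 0.59 with its regional median of 0.40 removed (edgeR adjusted p = 1.64e-05). KLF7 was 1.9-fold higher (0.93 ± 0.11, edgeR adjusted p = 1.58e-07) and KLF9 1.70-fold higher (0.76 ± 0.12, edgeR adjusted p = 8.73e-06), both without overlap, the latter 0.41 with its regional median of 0.25 removed (edgeR adjusted p = 0.00717). KLF9 and KLF13 were called lower than WT in the Fn14alpha knockout and higher than WT in the Fn14 knockout. This comparison tests the difference between the knockouts directly, and not the side of WT on which each lies.

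KLF6 differed by 0.68 ± 0.08 between the knockouts (edgeR adjusted p = 6.82e-08), but its neighbours on chromosome 10 had a median of 0.53, and with that removed the difference was 0.15 (edgeR adjusted p = 0.127). KLF11 differed by −0.33 ± 0.09 (edgeR adjusted p = 0.00345) and its neighbours by −0.51, so that it turned to 0.19 with that removed (edgeR adjusted p = 0.0868). KLF2 differed by 0.35 ± 0.08 with overlapping groups (edgeR adjusted p = 0.000630), with values of 0.20 under total counts (adjusted p = 0.0317) and 0.55 with its regional median removed (adjusted p = 4.04e-06). KLF5 did not pass (−0.16 ± 0.16, edgeR adjusted p = 0.411), though it did without Fn14 knockout replicate 4 (−0.37, adjusted p = 0.0450) and with its regional median removed (−0.54, adjusted p = 0.00908). For KLF10 the difference was 0.00 ± 0.08 (interval −0.16 to 0.17, edgeR adjusted p = 0.985), and its sign turned under 9 of 18 alternatives.

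**Figure D4:**
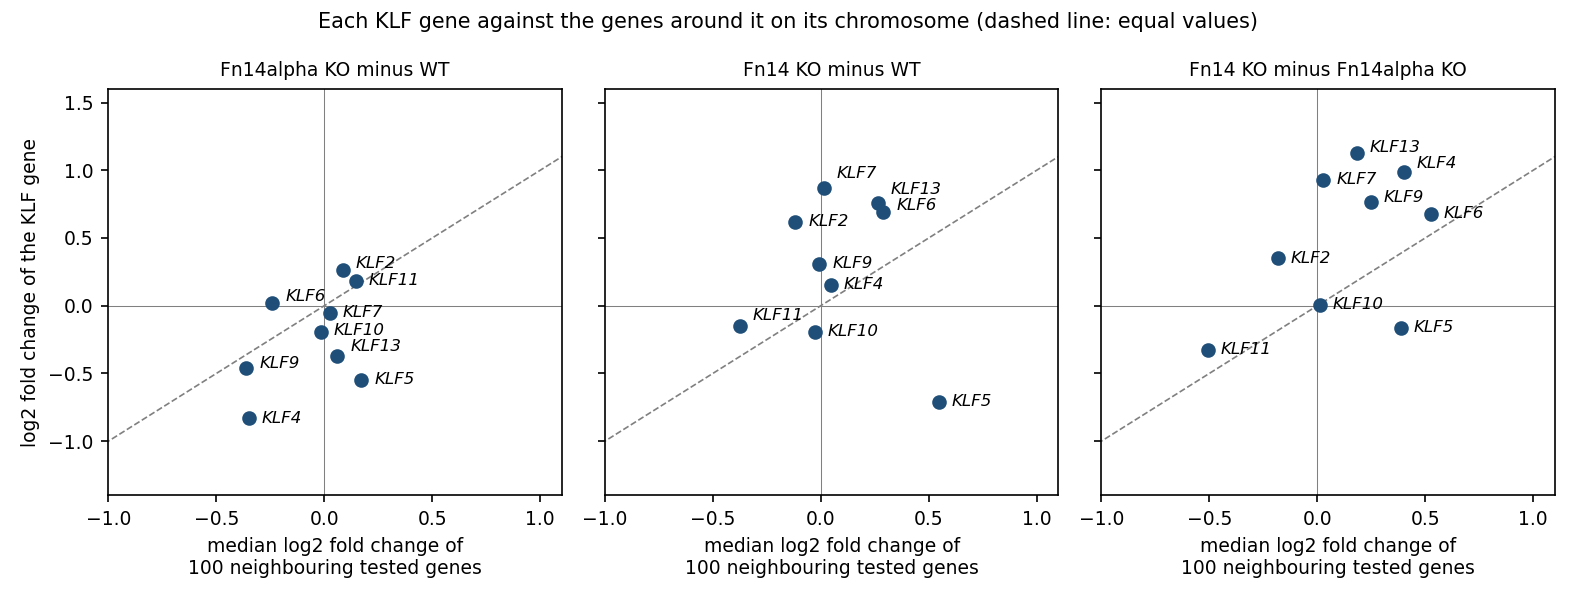
Log2 fold change of each KLF gene (vertical axis) against the median log2 fold change of the 100 tested genes nearest to it on the same chromosome (horizontal axis), in the 2 knockout comparisons with WT and in the knockouts against each other, with equal values on the dashed line. KLF9 lies near the line in the Fn14alpha knockout (−0.46 against −0.36), and KLF5 lies far below it in the Fn14 knockout (−0.71 against 0.55).

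The positions of the members are those of the deposited GRCh38 table. KLF2 lies on chromosome 19 (16324826 to 16328685, plus strand), KLF4 on chromosome 9 (107484852 to 107490482, minus) and KLF5 on chromosome 13 (73054976 to 73077541, plus). KLF6 lies on chromosome 10 (3775996 to 3785281, minus), KLF7 on chromosome 2 (207074137 to 207167267, minus) and KLF9 on chromosome 9 (70384604 to 70414657, minus). KLF10 lies on chromosome 8 (102648784 to 102655725, minus), KLF11 on chromosome 2 (10042849 to 10054836, plus) and KLF13 on chromosome 15 (31326835 to 31435665, plus). The KLF7 locus also holds the antisense RNA MYOSLID, with 1790 counts over the 16 libraries against 15733 for KLF7. Since the use of strand in the counting is not given, reads of the 2 cannot be told apart where they overlap. In bulk RNA, less RNA of a gene per cell and fewer cells that carry it cannot be told apart either.

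Calls are also given by class, and with so few genes each no class is read as particular. Of all genes tested, 6.87% were called with TWEAK, 42.2% in the Fn14alpha knockout, and 52.9% when total Fn14 was knocked out. Of 5 tested in the activator class, with KLF2, KLF4, KLF5, KLF6 and KLF7, 1 was higher and 0 lower with TWEAK. There were 1 higher and 2 lower in the Fn14alpha knockout, and 3 higher and 1 lower in the Fn14 knockout. Of 5 tested in the SIN3A-binding class, which adds KLF16, 0 were higher and 1 lower with TWEAK, 0 higher and 2 lower in the Fn14alpha knockout, and 2 higher and 0 lower in the Fn14 knockout. Of 3 in the CtBP-binding class, 0 were called with TWEAK, 1 was lower in the Fn14alpha knockout, and 2 were higher and 1 lower in the Fn14 knockout.

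Of the 9 KLF genes outside the members, 5 passed the filter. KLF8, a CtBP-binding repressor, had few reads, with 31, 31, 31 and 33 counts in WT, 16, 23, 29 and 21 with TWEAK, 2, 4, 5 and 6 in the Fn14alpha knockout and 1, 2, 4 and 5 in the Fn14 knockout. Both knockouts lay far below WT, by −2.78 ± 0.33 (edgeR adjusted p = 3.34e-07) and −3.19 ± 0.36 (edgeR adjusted p = 6.12e-08). KLF15, a metabolic regulator that also responds to glucocorticoids, had 16, 14, 21 and 9 counts in WT, against 40, 48, 45 and 57 in the Fn14alpha knockout. Its Fn14 knockout libraries had 31, 49, 27 and 27 counts, and both knockouts lay above all WT libraries. KLF15 rose by 1.73 ± 0.28 (edgeR adjusted p = 1.94e-05) and 1.30 ± 0.29 (edgeR adjusted p = 0.000547). KLF12, another CtBP-binding repressor, rose from 1.62 ± 0.197 to 2.46 ± 0.435 FPKM in the Fn14 knockout (0.72 ± 0.11, edgeR adjusted p = 1.06e-05), and its difference was 0.18 with its regional median of 0.54 removed (edgeR adjusted p = 0.223). KLF3 rose by 0.30 ± 0.09 there (edgeR adjusted p = 0.00642). Its difference was 0.04 with its regional median of 0.26 removed (edgeR adjusted p = 0.746), and the call was also lost with total counts (0.19, adjusted p = 0.0933). KLF16 was not called in any of the 4 comparisons (edgeR adjusted p from 0.0820 to 0.725), and KLF1, KLF14, KLF17 and KLF18 had too few reads to be tested.

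The SP factors share the GC-box specificity of the KLFs. Of 6 tested, 0 were called with TWEAK, 3 were higher and 0 lower in the Fn14alpha knockout, and 2 higher and 1 lower in the Fn14 knockout. SP4 was 1.89 ± 0.128 FPKM in WT, 2.49 ± 0.144 in the Fn14alpha knockout (0.37 ± 0.10, edgeR adjusted p = 0.00667) and 2.62 ± 0.430 in the Fn14 knockout (0.59 ± 0.10, edgeR adjusted p = 3.69e-05). Of 12 genes of the ERK5 and MEF2 pathway upstream of KLF2 and KLF4, 0 were higher and 1 lower with TWEAK, 2 higher and 3 lower in the Fn14alpha knockout, and 3 higher and 3 lower in the Fn14 knockout. MAPK7, which encodes ERK5, rose by 0.50 ± 0.08 in the Fn14 knockout (edgeR adjusted p = 1.48e-05). It also rose by 0.46 in the Fn14alpha knockout (edgeR adjusted p = 8.71e-05), where KLF2 was higher and KLF4 lower. The largest change of the list in the Fn14 knockout was a fall, of MAP3K2 by 0.61 (edgeR adjusted p = 6.16e-09).

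Of 12 corepressors and coactivators that KLFs recruit, 1 was higher and 0 lower with TWEAK, 3 higher and 2 lower in the Fn14alpha knockout, and 4 higher and 1 lower in the Fn14 knockout. KAT2B, the acetyltransferase PCAF, fell by 0.47 in the Fn14alpha knockout (edgeR adjusted p = 0.000448) and was 1.31 higher in the Fn14 knockout than in it (edgeR adjusted p = 3.90e-11), or 0.54 with the regional median of 0.81 removed. In the Fn14 knockout SAP30, a subunit of the SIN3 complex, fell by 1.05 (edgeR adjusted p = 2.02e-05; −0.54 with the regional median removed), and CTBP1 rose by 0.42 (edgeR adjusted p = 1.64e-06; 0.25 with it removed). Of 6 ubiquitin ligases reported to act on KLF proteins, 1 was higher and 0 lower with TWEAK, 1 higher and 2 lower in the Fn14alpha knockout, and 1 higher and 4 lower in the Fn14 knockout. WWP1, a ligase of KLF2 and KLF5, fell by 0.36 and 0.38 in the knockouts (edgeR adjusted p = 0.00165 and 0.000688). SMURF1 rose by 0.46 with TWEAK (edgeR adjusted p = 0.000195) and fell by 0.41 in the Fn14 knockout (edgeR adjusted p = 0.000103). The largest change of the list in the Fn14 knockout was a rise, of VHL by 0.88 (edgeR adjusted p = 2.2e-10).

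Genes reported elsewhere as KLF targets went both ways in each knockout, and those called with TWEAK were all higher. Of 17 tested, 5 were higher and 0 lower with TWEAK, 5 higher and 6 lower in the Fn14alpha knockout, and 6 higher and 6 lower in the Fn14 knockout. The list medians were 0.12, 0.03 and −0.04, beside −0.01, 0.01 and −0.01 over all genes. With TWEAK, S1PR1, a sphingosine-1-phosphate receptor, rose 3.25-fold to 7.53 ± 0.494 FPKM (edgeR adjusted p = 1.47e-11). CCL5 rose 5.22-fold with TWEAK, to 1.14 ± 0.342 FPKM (edgeR adjusted p = 3.92e-05). S1PR1 was 1.47 lower in the Fn14 knockout than in the Fn14alpha knockout (edgeR adjusted p = 1.77e-10), while KLF2 was 0.35 higher. THBD, the KLF2 target thrombomodulin, rose from 0.675 ± 0.165 to 2.80 ± 0.330 FPKM in the Fn14alpha knockout (2.02 ± 0.16, edgeR adjusted p = 2.98e-10). It reached 2.00 ± 0.275 FPKM when total Fn14 was knocked out (1.68 ± 0.16, edgeR adjusted p = 4.93e-09; 1.06 with the regional median removed). CDKN1A, the cell cycle inhibitor p21 that KLF4 and KLF6 induce, fell from 47.4 ± 2.48 to 18.5 ± 1.02 and 17.8 ± 1.06 FPKM (edgeR adjusted p = 4.47e-13 and 4.23e-13). PLAU, which encodes urokinase, rose 1.28-fold with TWEAK (edgeR adjusted p = 0.00284) and fell to 16.5% of WT in the Fn14 knockout (edgeR adjusted p = 9.19e-18). TAGLN, a smooth muscle gene that KLF4 represses, rose 3.84-fold in the Fn14 knockout (edgeR adjusted p = 1.34e-14). KLF4 itself was not called there (0.16, edgeR adjusted p = 0.154). ACTA2 and MMP14 fell to 41.8% and 55.8% of WT in the Fn14alpha knockout (edgeR adjusted p = 2.89e-07 and 2.96e-11), where KLF4 was lower. ACTA2 was 1.35 higher in the Fn14 knockout than in the Fn14alpha knockout (edgeR adjusted p = 3.99e-08), and KLF4 was 0.99 higher.

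The genes around KLF9 were read from lists of glucocorticoid-responsive and clock genes. Of 10 glucocorticoid-responsive genes, 1 was higher and 2 lower with TWEAK, 5 higher and 1 lower in the Fn14alpha knockout, and 8 higher and 1 lower in the Fn14 knockout, with list medians of −0.02, 0.21 and 0.69. SGK1, a kinase of that list, fell by 0.33 with TWEAK (edgeR adjusted p = 0.00433) and rose by 0.42 in the Fn14alpha knockout (edgeR adjusted p = 3.71e-05; 0.70 with the regional median removed) and by 1.57 in the Fn14 knockout (edgeR adjusted p = 7.05e-15). The gene of that list higher with TWEAK was FKBP5 (0.25, edgeR adjusted p = 0.0126). FKBP5 and TSC22D3 rose 2.51- and 2.08-fold in the Fn14 knockout (edgeR adjusted p = 1.43e-14 and 5.12e-10), where NR3C1, the glucocorticoid receptor gene, rose 1.63-fold (edgeR adjusted p = 8.33e-09). In the Fn14alpha knockout, where KLF9 was lower, TSC22D3 fell by 0.69 (edgeR adjusted p = 1.59e-06; 0.24, the opposite sign, with the regional median removed) and DUSP1 rose 1.47-fold (edgeR adjusted p = 8.05e-07). Of 11 clock genes tested, 1 was higher and 0 lower with TWEAK, 2 higher and 1 lower in the Fn14alpha knockout, and 3 higher and 1 lower in the Fn14 knockout. The gene higher with TWEAK was CLOCK (0.36 ± 0.09, edgeR adjusted p = 0.0119), a call that was lost with limma on log2(FPKM + 0.1) (0.31, adjusted p = 0.0754). In the Fn14 knockout CRY1 rose by 0.54 (edgeR adjusted p = 5.27e-06) and NR1D1 fell by 0.81 (edgeR adjusted p = 3.31e-05; −1.22 with the regional median removed).

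KLF10 and KLF11 were set beside other TGF-beta early genes. Of 9 tested, 3 were higher and 0 lower with TWEAK, 3 higher and 2 lower in the Fn14alpha knockout, and 4 higher and 3 lower in the Fn14 knockout. The list medians were 0.12, 0.03 and 0.13. Between the knockouts 2 were higher and 6 lower in the Fn14 knockout, with a median of −0.29. PMEPA1 rose 3.10-fold in the Fn14alpha knockout and 9.40-fold in the Fn14 knockout (edgeR adjusted p = 1.32e-09 and 3.95e-16). CCN2 rose 3.63- and 2.96-fold (edgeR adjusted p = 4.22e-11 and 2.48e-10). JUNB, which is on this list too, fell in both knockouts (values below). KLF10 and KLF11 were not called in either. BHLHE40, a repressor that is also part of the clock, rose by 0.87 with TWEAK (edgeR adjusted p = 5.30e-09) and by 1.31 in the Fn14 knockout (edgeR adjusted p = 2.50e-13; 0.47 with the regional median of 0.83 removed). Of 14 immediate early genes, 5 were higher and 0 lower with TWEAK, 2 higher and 2 lower in the Fn14alpha knockout, and 2 higher and 8 lower in the Fn14 knockout. JUNB rose by 0.82 with TWEAK (edgeR adjusted p = 1.73e-08) and fell by 0.50 and 1.09 in the Fn14alpha and Fn14 knockouts (edgeR adjusted p = 8.17e-06 and 2.87e-11), FOSL1 rose by 0.85 with TWEAK (edgeR adjusted p = 1.58e-07), and FOS fell by 1.01 in the Fn14 knockout (edgeR adjusted p = 0.000506). Of 6 NF-kB response genes, 6 were higher with TWEAK, 1 was higher and 3 lower in the Fn14alpha knockout, and 6 were lower in the Fn14 knockout, where TNFAIP3 fell to 13.3% of WT (edgeR adjusted p = 2.61e-17). KLF2, KLF6, KLF7, KLF9 and KLF13 were higher and KLF5 was lower in that group.

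Likeness was measured as Pearson's r of log2 CPM over the 16 libraries, which share 4 groups, among 10027 genes whose mean reached 2 FPKM. It is given as a description. KLF6 was most like CNOT6 (r = 0.987), KLF7 like STK4 (0.982) and TUG1 (0.975), and KLF13 like PITRM1 (0.983) and ABCC4 (0.977). KLF4 was most like SYT11 (0.979) and PROS1 (0.976), KLF11 like FBXO41 (0.976) and CABLES2 (0.967), and KLF2 like PES1 (0.963) and ALYREF (0.950). For KLF9 the closest genes were DAAM1 (0.941) and EPS8 (0.913), for KLF5 RESF1 (0.938) and LRP6 (0.933), and for KLF10 NFE2L2 (0.926) and LRRC1 (0.925). Among the members themselves KLF7 went with KLF13 (0.926, and 0.705 after the group means were removed) and with KLF6 (0.912 and 0.687). KLF2 and KLF13 had r = 0.498 over the libraries but −0.765 after the group means were removed. The 2 libraries that lay apart were the highest of their groups for KLF2 and the lowest for KLF13.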

How the data were processed

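The authors deposited 1 table with a raw read count per gene and library, and FPKM values in the same table that, per the file headers, are the counts scaled by exonic size and by library total, as the values also show. Per the submitters' processing notes, the tools included cutadapt 1.9.1, HISAT2 2.0.1 and HTSeq 0.6.1, with builds GRCh38.p13 and hg38, with no roles given. The sources used here do not give the strand setting.

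The deposited counts were tested with edgeR 4.0.16 in R 4.3.3 by the quasi-likelihood test (two-sided), scaled by TMM, after edgeR's filterByExpr on the groups, with robust settings and all 16 libraries in 1 fit of 4 group means. Calls needed an adjusted p (Benjamini-Hochberg, over 16029 genes) under 0.05. The SE is the log2 fold change divided by the square root of F, and intervals are 1.96 SE. Fold values come from the fit, levels are deposited FPKM as mean ± SD. A regional median is that of the 50 tested genes on each side on the same chromosome, removed through offsets. Alternatives used limma 3.58.1 and DESeq2 1.42.0. The edgeR, limma and DESeq2 fits were tested on simulated data. Each library was counted once. Replicate pairs differed by more than sampling noise (chi-square per degree of freedom 2.40 to 42.9 over 24 pairs). That spread cannot tell separate cultures from separate preparations of the same culture.

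The members and lists were chosen with earlier results of these data known. The rule for named genes took all members, all other KLF genes, up to 4 called genes per list with the largest absolute log2 fold change at a mean of at least 1 FPKM, and the 2 genes most like each member. Some genes that the rule takes, among them those whose call was lost under an alternative, are not reported here by name. Figures were drawn with Python 3.11.15 and matplotlib 3.10.9.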

Additional observations from a re-analysis of the deposited data

Results flagged for a closer look

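Each of the 9 members was checked for a library far from the others in each group, 36 sets of 4 libraries, and 2 stood out by Dixon's test, where chance gives about 1 in 20. KLF2 was 21.47 FPKM in TWEAK replicate 1, against 18.77 to 19.13 in the other TWEAK libraries. KLF5 was 1.88 FPKM in Fn14 knockout replicate 4, against 1.13 to 1.18 in the others, and without that library KLF5 passed as lower in the Fn14 knockout than in the Fn14alpha knockout (−0.37, edgeR adjusted p = 0.0450).

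Both KLF9 and KLF13 were called lower than WT in the Fn14alpha knockout and higher than WT in the Fn14 knockout. For KLF9 the first call was lost with the regional median removed (−0.095, edgeR adjusted p = 0.587). The second was lost in 7 of 18 alternatives. The direct test between the knockouts gave a log2 difference of 0.76 for KLF9 (edgeR adjusted p = 8.73e-06) and 1.13 for KLF13 (edgeR adjusted p = 2.27e-10), each higher in 4 of 4 Fn14 knockout libraries than in all 4 of the other knockout.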

How the results depend on the processing

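Of 36 member results, 20 were called and 14 of these passed in all 18 alternatives run for each. With TWEAK, 2 members were called, and 1, KLF9, with total counts in place of TMM, with limma on log2(FPKM + 0.1), with limma on log2(FPKM + 1) and with the replicate block. Leaving out 1 library gave 1 to 2 members there. The direction turned for 5 member results, 4 of them not called in the fit reported and 1 called, KLF11 between the knockouts. KLF6 in the Fn14alpha knockout was −0.027 without Fn14alpha knockout replicate 4 (range over libraries left out −0.027 to 0.063), and KLF7 was 0.021 without replicate 3. KLF10 between the knockouts was −0.01 with DESeq2 size factors, −0.01 with the DESeq2 Wald test, −0.15 with total counts, −0.15 and −0.14 with limma on log2(FPKM + 0.1) and log2(FPKM + 1), −0.014 with only those groups fitted, −0.002 and −0.05 without Fn14alpha knockout replicates 1 and 2, and −0.055 without Fn14 knockout replicate 4 (range over libraries left out −0.055 to 0.055). With the regional median removed, KLF11 was 0.23 against WT and 0.19 between the knockouts, TSC22D3 in the Fn14alpha knockout was 0.242, and 15 of 20 member calls remained. The cause of these changes was not tested. The share of higher calls depended on scaling. With TWEAK 773 of 1101 called genes were higher, and 586 of 1336 with total counts. In the Fn14 knockout these were 4256 of 8472 and 3189 of 8870, and between the knockouts 4923 of 9489 and 3666 of 9832. Replicate numbers did not pair the libraries (same-number correlations −0.228 to 0.108, and 1 of 16 libraries was most like its own number). With the replicate block, 893, 6454, 8205 and 9241 genes and 1, 5, 6 and 7 members were called in the 4 comparisons. Of the KLF genes tested, KLF8, KLF15 and KLF5 had the fewest reads, which limits the differences detectable in them.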
